A study of Mus musculus with 12 samples.

Results

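Interferon-stimulated genes were followed across the aortic valve leaflets of 4 mouse genotype groups. The set holds 43 genes of the 41709 in the deposited table, matched by gene symbol from a list. All 43 had at least 1 count in some library, but total counts over the 12 libraries were low. In 23 members the total ran from 98 to 7243 counts (median 155) and the gene could be tested. The other 20, with 13 to 89 counts each, did not pass the filter on low counts and are described by their counts. The question put to the set was whether Slfn5 and Trim34a, which had drawn attention in one of the mutant groups (ECKO), belong to a wider response there. Both had been singled out from these same libraries, so their own values in every comparison that uses ECKO, the interaction and the F test included, are given as a description.

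Each group, CTRL, ECKO, SMKO and DKO, was represented by 3 libraries, called biological triplicates by the submitters, from C57BL/6J;129SvEv mice aged 2 months. The labels give the group codes without a gene. From knowledge of this study, the mice lacked fibulin-4, the product of Efemp2 and a matrix glycoprotein needed to build elastic fibres. ECKO stands for loss from the endothelium, SMKO for loss from smooth muscle and DKO for loss from both. Neither the Cre drivers nor the exact CTRL genotype is stated in the labels. Leaflets were cut from fixed, frozen and hematoxylin-stained sections by laser microdissection, so each value averages over all leaflet cells, and fewer cells of a type cannot be told apart from less RNA per cell. Labels assign no animal to a library, and p-values measure the spread between these libraries only.

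Type I interferons are secreted when cells sense foreign nucleic acid. Type I interferons act through the receptor pair Ifnar1 and Ifnar2, the kinases Jak1 and Tyk2, and a complex that includes Stat2 and Irf9 and binds the interferon-stimulated response element (ISRE) in target promoters. Interferon gamma acts through Ifngr1 and Ifngr2 and leads to binding at a gamma-activated site (GAS). The products degrade or sequester viral RNA, tag proteins with Isg15, attack membranes around pathogens and raise antigen presentation. Many of these genes are also transcribed at a low tonic level without infection.

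Promoters in RefSeq (mouse build GRCm38.p6, 250 bases before to 50 after each start) were available for 36 of the 43 members. They were searched on both strands for an ISRE, taken as GAAA, any 2 bases and GAAA again, and for the GAS letters TTCNNNGAA, which can overlap it. An ISRE match was present in 21 members, or 58.3%, against 3.99% of 27025 genes with a promoter in that table. A GAS match was present in 11, or 30.6%, against 9.55% of all. The sites of 6 members are shown because the results below turn on these genes or, for Ifitm3, because it held most of the counts. Capitals mark the ISRE letters or their reverse complement, and each is written 5′ to 3′ on the gene's own strand.
Slfn5, chr11:82951937-82951966, plus strand: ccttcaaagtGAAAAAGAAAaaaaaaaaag
Trim34a, chr7:104244457-104244486, plus strand: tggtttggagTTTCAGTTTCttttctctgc
Stat2, chr10:128270266-128270295, plus strand: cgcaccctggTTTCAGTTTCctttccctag
Ifit1, chr19:34640775-34640804, plus strand: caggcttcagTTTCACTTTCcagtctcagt
Rsad2, chr12:26456553-26456582, minus strand: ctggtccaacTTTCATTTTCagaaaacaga
Ifitm3, chr7:141010723-141010752, minus strand: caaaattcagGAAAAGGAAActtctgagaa
Relative to the start of transcription, the match began at position -155 in Slfn5, 11 in Trim34a, -222 in Stat2, -104 in Ifit1, -120 in Rsad2 and 3 in Ifitm3. The capitals of Trim34a and Stat2 are the same 10 letters, and in Slfn5 the match runs on into a stretch of adenines. Ifit3 and its near copy Ifit3b share one 30-base site, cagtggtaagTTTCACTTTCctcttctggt, and reads from such copies may be divided between them. A match is a description of letters, not evidence of binding.

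The smallest library held 74827 counts, the largest 615665 and the median one 321312. Mitochondrially encoded genes took 10.5% to 28.5% of counts and were highest in SMKO 3, CTRL 3 and SMKO 2. For the targeted gene Efemp2, CTRL libraries had 58, 23 and 9 counts, ECKO libraries 3, 15 and 8, SMKO libraries 4, 0 and 0, and DKO libraries 0 each. Counts of Y-linked genes came to 30 for CTRL 3, 89 for SMKO 1, 28 for DKO 3 and at most 1 elsewhere, so both sexes are present and no ECKO library had more than 1 such count. Red blood cell markers ran from 41.0 to 5561 CPM and heart muscle markers from 10.2 to 598, both highest in ECKO 2. Genes of interstitial cells, the main leaflet cell, were abundant in every library, while lymphocyte markers summed to 0 to 29.7 CPM (counts scaled to library size) with Cd3d and Cd3e at 0, and dendritic cell markers to 4.15 to 52.0 with Flt3 at 0.

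Levels are given in CPM, counts scaled to library size and by TMM, to compare libraries, with the mean ± SD of 3. TPM values, which the authors scaled by gene length and depth, are used to compare genes. Log2 fold changes are given ± standard error with the p adjusted over all 6296 tested genes in edgeR's quasi-likelihood test, and a gene is called at an adjusted p under 0.05. No member was called in any of 8 tests, namely the 6 pairs, the interaction of both deletions and a joint F test of all 4 groups. DESeq2 and limma-voom on the same genes likewise called 0 members in each.

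One member dominated the set. Ifitm3, a membrane protein that blocks virus entry, had a mean of 4078 TPM over the 12 libraries, against a next highest value of 48.0 TPM for Bst2, a tether that holds budding virus at the cell surface. Ifit3 (47.8 TPM) and Ifit1 (38.3 TPM), which bind viral RNA, and Psmb8 (46.0 TPM), a subunit of the immunoproteasome, came next. The levels of Bst2, Ifit3 and Psmb8 do not differ beyond their spread between libraries. For Ifitm3 in CPM, CTRL libraries had 1383, 1677 and 1329.9, ECKO libraries 1935, 1373 and 1221, SMKO libraries 1604, 2583 and 966, and DKO libraries 2025, 1454 and 2019. The groups overlapped, and its log2 fold change from CTRL was 0.04 ± 0.33 in ECKO, 0.24 ± 0.33 in SMKO and 0.32 ± 0.33 in DKO.

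The other abundant members rested on few counts per library. Irf9 had 38, 37 and 7 counts in CTRL, with ECKO at 18, 52 and 26, SMKO at 27, 7 and 5, and DKO at 13, 33 and 17. Gbp2, a guanylate-binding GTPase, had 42, 39 and 7, with ECKO at 12, 38 and 19, SMKO at 36, 3 and 2, and DKO at 14, 23 and 15. Trim25 had 45, 17 and 7, with ECKO at 7, 35 and 17, SMKO at 28, 10 and 3, and DKO at 13, 30 and 19. In these 3 genes the library with the largest total had the most counts in each group. Psmb8 had 28, 25 and 3, with ECKO at 15, 27 and 10, SMKO at 40, 10 and 3, and DKO at 9, 16 and 15. Ifit3 had 15, 38 and 1, with ECKO at 6, 36 and 14, SMKO at 23, 10 and 6, and DKO at 16, 21 and 23. Xaf1 had 7, 20 and 1, with ECKO at 9, 22 and 13, SMKO at 11, 18 and 6, and DKO at 9, 24 and 10. The single counts of Ifit3 and Xaf1 in CTRL 3, the smallest CTRL library, mark the precision of that group.

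Slfn5, a Schlafen family member, and Trim34a, a member of the TRIM family of ubiquitin ligases, were higher in every ECKO library than in every CTRL library. Slfn5 was at 37.9, 52.5 and 59.4 CPM in CTRL and 113, 107 and 82.6 in ECKO. It was at 69.8, 66.8 and 82.8 in SMKO and 72.6, 49.8 and 49.8 in DKO. The order of group means was CTRL (50.0 ± 11.0), DKO (57.4 ± 13.2), SMKO (73.1 ± 8.54) and ECKO (100.6 ± 15.8); DKO overlapped CTRL, and the lowest ECKO library lay just under the highest SMKO library. These rest on 68 counts in CTRL and 131 in ECKO, a pooled ratio of 2.15 (exact binomial 95% interval 1.59 to 2.92, counting error only). The log2 fold change of ECKO against CTRL was 1.07 ± 0.29 (95% interval 0.48 to 1.65, adjusted p = 0.650).

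For Trim34a, CTRL libraries had 16.03, 6.18 and 22.3 CPM, ECKO libraries 71.7, 49.6 and 34.4, SMKO libraries 35.7, 25.7 and 13.8, and DKO libraries 18.2, 37.8 and 24.9. ECKO stood above CTRL without overlap, while SMKO and DKO each overlapped both. These values rest on 18 counts in CTRL and 63 in ECKO, a pooled ratio of 3.90 (2.28 to 7.005). The log2 fold change of ECKO against CTRL was 1.95 ± 0.46 (95% interval 1.00 to 2.89, adjusted p = 0.422). Without the low-count filter the same difference of 1.92 had an adjusted p of 0.0381, among 15 genes called (0.0904% of 16588). That call was lost when CTRL 1, CTRL 2, ECKO 1 or ECKO 2 was left out (adjusted p = 0.183, 0.792, 0.202 and 0.343).

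**Figure D1:**
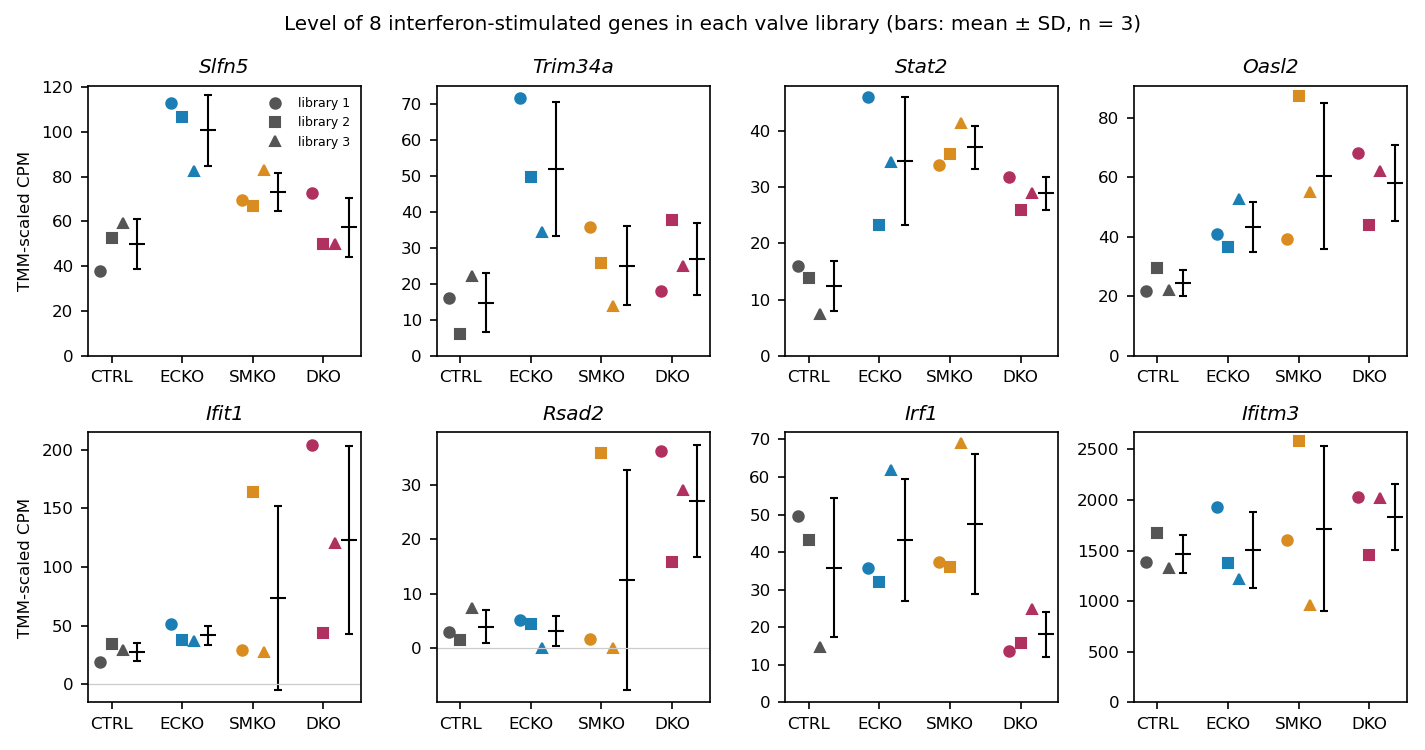
Level (vertical axis, TMM-scaled CPM) of 8 interferon-stimulated genes in each library of the 4 groups (horizontal axis); circles, squares and triangles are libraries 1, 2 and 3, and black bars are the mean ± SD of the 3. Slfn5 and Trim34a lie higher in all ECKO than in all CTRL libraries, and Ifit1 and Rsad2 are high in DKO and in SMKO library 2.

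Setting both genes aside, 21 tested members remained for the question about ECKO. None was called, and of all 6296 genes tested in ECKO against CTRL 0 were called (0%). At an unadjusted p under 0.05 the background was 4.34% of genes, (2.11% higher and 2.22% lower), and 2 of the 21 passed, both higher. They were Stat2, the interferon-specific subunit of the ISRE-binding complex, and Oasl2, an oligoadenylate synthetase relative. Stat2 was at 16.03, 13.9 and 7.43 CPM in CTRL and 46.1, 23.3 and 34.4 in ECKO (log2 fold change 1.17 ± 0.45, adjusted p = 0.998). Oasl2 was at 21.9, 29.4 and 22.3 in CTRL and 41.0, 36.5 and 52.8 in ECKO (0.77 ± 0.37, adjusted p = 0.998). Neither overlapped between these groups. The low-count filter asks for its minimum, scaled to library size, in 3 libraries of any group. A member low in CTRL can therefore be tested through groups where it is high. Stat2 had 11, 9 and 1 counts in CTRL and Trim34a 11, 4 and 3, below that scaled minimum in each CTRL library. So did Parp14, with 10, 15 and 4 counts in CTRL, and Ifi35, with 16, 14 and 3, lie below it. These genes were thus tested through mutant libraries alone, and their differences from CTRL, also in SMKO and DKO, are given as a description. Oasl2, Ifit1, Ifit3, Xaf1 and Samhd1 did not reach the scaled minimum in every CTRL library. Counts of members that were higher, apart or past a threshold, here and below, include such genes and are given as a description too.

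In direction, the 21 were divided: 12 were higher in ECKO and 9 lower, with a median log2 fold change of 0.06, against 49.5% of all tested genes higher and a median of -0.00. Leaving out ECKO 3 moved the median of those still tested to 0.27. The libraries of the groups did not overlap for 11.8% of all genes (5.73% higher and 6.07% lower) and for 6 of the 21. Higher in ECKO were Stat2, Oasl2, Samhd1, a nucleotide hydrolase that restricts viruses, Irf9, the DNA-binding subunit paired with Stat2, and Ifit1. Lower was Bst2, at 40.8, 29.4 and 44.6 CPM in CTRL against 20.5, 23.3 and 11.5 in ECKO (-0.97 ± 0.53, adjusted p = 0.998). The guanylate-binding and immunity-related GTPases, which attack pathogen vacuoles, ran from -0.66 in Iigp1 to 0.48 in Gbp7 among the 4 tested. The other 2, Igtp and Gbp3, were at 0.99 and 0.82 without the filter (adjusted p = 0.895 for each). Trim30a, a relative of Trim34a, was at -0.21 ± 0.42.

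Over all 43 members without the filter, 29 were higher in ECKO and 14 lower, with a median of 0.38, against 49.4% of 16588 genes higher and a median of 0. Most of the added genes had few counts. Isg15, the ubiquitin-like modifier, had 1, 2 and 0 counts in CTRL and 3, 4 and 1 in ECKO. Eif2ak2, the RNA-activated kinase PKR, had 7, 4 and 1 counts in CTRL and 6, 9 and 10 in ECKO, a log2 difference of 1.24 (adjusted p = 0.895). Without Slfn5 and Trim34a the count was 27 of 41, with a median of 0.35. The sum of the 40 members other than Ifitm3, Slfn5 and Trim34a was 756, 904 and 713 CPM in CTRL and 1106, 879.9 and 905 in ECKO, so the groups overlapped. With Slfn5 and Trim34a added they did not (795 to 963 against 1022 to 1290), but both had been chosen for being high in ECKO. Endothelial markers also lay higher in ECKO, at 1208 to 1478 CPM against 978 to 1189. Melanocyte markers lay lower, at 35.8 to 71.2 against 178 to 649, and macrophage markers overlapped (882 to 1623 against 965 to 1285). The part of these cells in the members' differences was not tested.

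**Figure D2:**
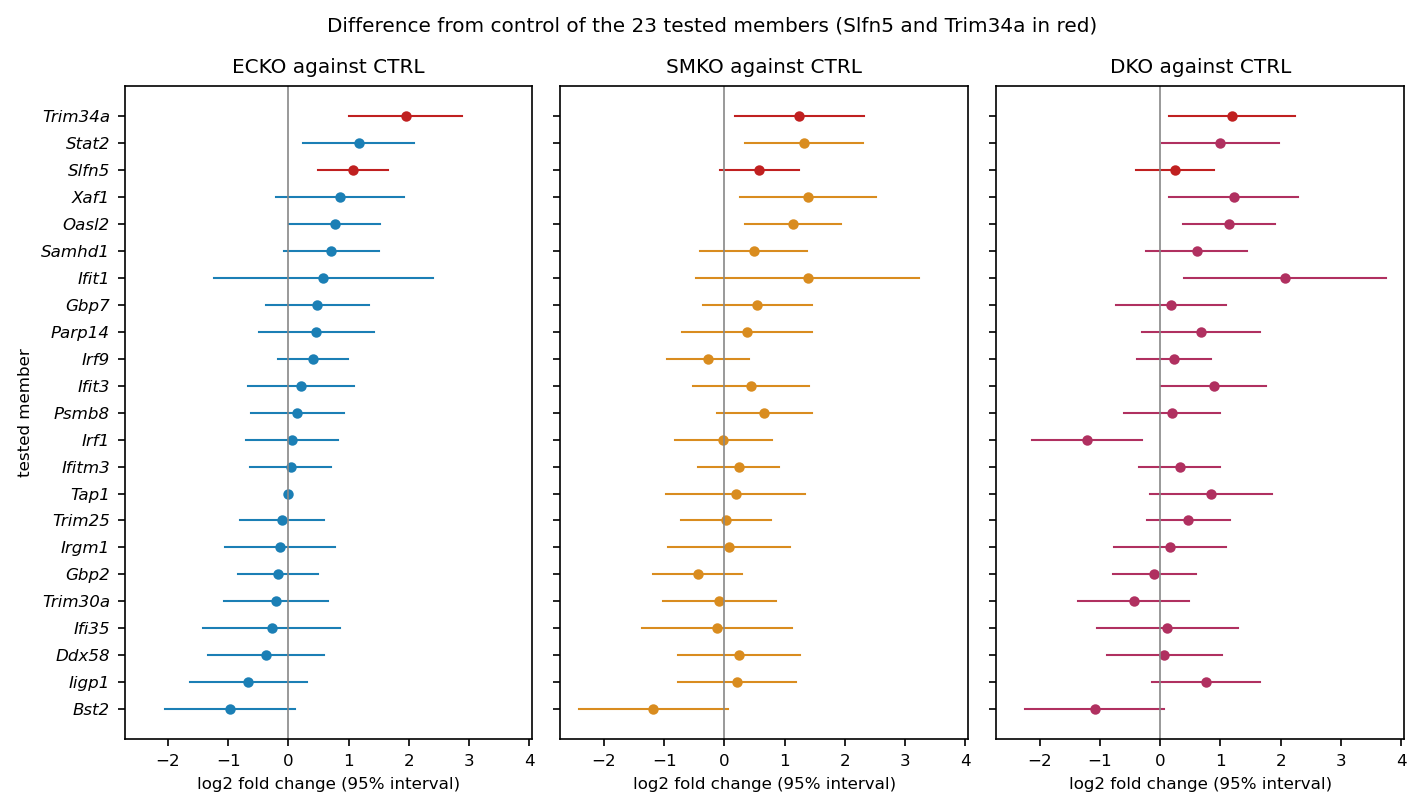
Log2 fold change from CTRL (horizontal axis, points) with its 95% interval (lines) for the 23 tested members (vertical axis, ordered by ECKO) in ECKO, SMKO and DKO; Slfn5 and Trim34a are red, and Tap1 in ECKO has no interval because its change is about 0. In ECKO the other 21 members lie on both sides of 0, while in DKO 19 of 23 lie to its right.

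The other mutant groups were set against the same CTRL libraries, so the 3 comparisons with CTRL are not independent of one another. In SMKO, 17 of the 23 tested members were higher than in CTRL (50.4% of all genes) with a median log2 fold change of 0.24. No member was called, as 0 of all genes were (0%). At an unadjusted p under 0.05, which 5.48% of all genes reached (2.59% higher and 2.89% lower), 4 members passed, all higher: Oasl2 (1.14 ± 0.39), Stat2 (1.32 ± 0.48), Xaf1, a binder of apoptosis inhibitors (1.40 ± 0.55), and Trim34a (1.25 ± 0.53), with adjusted p of 0.874 to 0.885. Stat2 and Oasl2 did not overlap between the groups, nor did Slfn5 (0.58 ± 0.32) and Psmb8, which were higher, or Bst2, which was lower; 10.5% of all genes did not overlap (4.11% higher and 6.35% lower). Xaf1 shows how far the spread reached in SMKO, at 18.7, 92.4 and 82.8 CPM against 10.2, 30.9 and 7.43 in CTRL. Without the filter 33 of all 43 members were higher in SMKO (42.9% of all genes), with a median of 0.51, and 0 members were called (0.0482% of all genes). The median of the members still tested was 0.63 without SMKO 1, 0.53 without CTRL 2 and 0.07 without SMKO 2.

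In DKO, 19 of the 23 were higher than in CTRL (51.5% of all genes), with a median of 0.32 against 0.02 for all genes, and of 0.58 without DKO 2. Interstitial markers (58959 to 77876 against 41796 to 55617 CPM) and smooth muscle markers (328 to 384 against 245 to 305) were also higher in every DKO than in every CTRL library, and their part in the members' differences was not tested. No member was among the 31 genes called in this comparison (0.492%). At an unadjusted p under 0.05, which 11.6% of genes reached (6.46% higher and 5.16% lower), 7 members passed, 6 of them higher. Stat2 and Trim34a were among those 6. Libraries of both groups were apart for 17.8% of genes (9.7% higher and 8.13% lower) and for 6 members: Oasl2, Ifit1, Xaf1, Stat2 and Irf9 were higher and Bst2 lower. Ifit1 had the largest difference: 18.9, 34.0 and 29.7 CPM in CTRL and 204, 43.8 and 120.3 in DKO, with no overlap (2.07 ± 0.75, adjusted p = 0.303). It was also at 164 in SMKO 2, but at 28.9 and 27.6 in the other SMKO libraries and 51.2, 37.9 and 36.7 in ECKO. Without SMKO 2 the difference was 2.05 with an adjusted p of 0.0119, and the filter then kept 7627 genes.

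Oasl2 (68.1, 43.8 and 62.2 CPM in DKO, 1.14 ± 0.37, adjusted p = 0.187), Xaf1 (40.9, 47.8 and 41.5, 1.22 ± 0.52, adjusted p = 0.337) and Stat2 (31.8, 25.9 and 29.0, 1.00 ± 0.48, adjusted p = 0.415) stood above CTRL in every library. Ifit3 overlapped it at 72.6, 41.8 and 95.4 against 21.9, 58.7 and 7.43. Its difference of 0.89 ± 0.42 became 1.78 without CTRL 2 and 0.54 without CTRL 1. Xaf1 moved likewise, to 2.14 and 0.78. Trim34a was at 1.19 ± 0.51 and Slfn5 at 0.24 ± 0.32, both overlapping CTRL.

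Irf1, a transcription factor induced chiefly by interferon gamma, ran the other way. CTRL libraries had 49.5, 43.3 and 14.9 CPM, ECKO libraries 35.8, 32.1 and 62.0, SMKO libraries 37.4, 35.9 and 69.0, and DKO libraries 13.6, 15.9 and 24.9. DKO lay below all ECKO and SMKO libraries and overlapped CTRL only through CTRL 3. The log2 fold change was -1.21 ± 0.45 against CTRL (adjusted p = 0.240), -1.27 ± 0.45 against ECKO (adjusted p = 0.251) and -1.20 ± 0.49 against SMKO (adjusted p = 0.675). Irf1 shares exon sequence with a predicted gene on the opposite strand, and the library kit does not keep strand. By an older annotation (GENCODE vM21), 8 members including Irf1 share exon sequence with another protein-coding gene. Among them are Irf9 with Rnf31, Tap1 with Psmb9 and Irf7 with Phrf1. How such reads were divided is not given in the sources used here.

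Rsad2 (viperin), an enzyme that makes a chain-terminating nucleotide, was the only member of the 20 below the filter that was called without it. CTRL libraries had 2, 1 and 1 counts, ECKO libraries 1, 3 and 0, SMKO libraries 1, 7 and 0, and DKO libraries 8, 8 and 7. In CPM every DKO library (36.3, 15.9 and 29.0) lay above all of CTRL and ECKO, whose highest was 7.43, but SMKO 2 reached 35.9. The pooled ratio of DKO to CTRL was 8.76 (exact binomial 95% interval 2.99 to 34.8), from 23 counts against 4. Fitted without the filter, the log2 fold change was 3.02 against CTRL (adjusted p = 0.0275) and 2.95 against ECKO (adjusted p = 0.0327). Such a fit called 158 of 16588 genes against CTRL (0.952%) and 173 against ECKO (1.04%). The call against CTRL was lost without CTRL 1, CTRL 2, DKO 1 or DKO 3 (adjusted p = 0.224, 0.310, 0.210 and 0.122), and that against ECKO without ECKO 2, ECKO 3 or any DKO library (0.0572 to 0.357).

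Ifit1 was the other member called in DKO without the filter (adjusted p = 0.00225 against CTRL and 0.0425 against ECKO). The call against CTRL was lost without CTRL 3, DKO 1 or DKO 3 (adjusted p = 0.172, 0.0568 and 0.101). The call against ECKO was lost without CTRL 3, any ECKO library, DKO 1 or DKO 3 (adjusted p = 0.126 to 0.637), and without DKO 1 the difference of 1.49 became 0.91. Usp18, the protease that removes Isg15 and damps the type I receptor, had 3, 6 and 1 counts in CTRL and 8, 9 and 8 in DKO. Its level was 36.3, 17.9 and 33.2 CPM in DKO, and it reached 30.7 in ECKO 1 and 41.1 in SMKO 2 (DKO against CTRL, log2 fold change 1.92, adjusted p = 0.157). Irf7, the amplifier of type I interferon transcription, had 4, 7 and 1 counts in CTRL and 2, 10 and 15 in DKO (1.77, adjusted p = 0.177).

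Over all 43 members without the filter, 35 were higher in DKO than in CTRL (44.9% of all genes with a count), with a median of 0.58 against 0. In the authors' deposited table, a p-value under 0.05 was given to 14 members in DKO against CTRL, 12 of them higher, where 6.94% of all genes had one. The table gave it to 6 members, 4 higher, against ECKO (6.45% of all genes), and to Irf1 and Slfn2, both lower, against SMKO (4.27%). Whether those deposited p-values were adjusted is not given in the sources used here, but their values lie near unadjusted ones. For Oasl2 in DKO against CTRL the deposited p was 0.00634, and edgeR gave 0.00459 unadjusted and 0.187 adjusted. For Slfn5 in DKO against ECKO these were 0.00679, 0.00823 and 0.248. The deposited p-values are therefore read here as unadjusted.

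**Figure D3:**
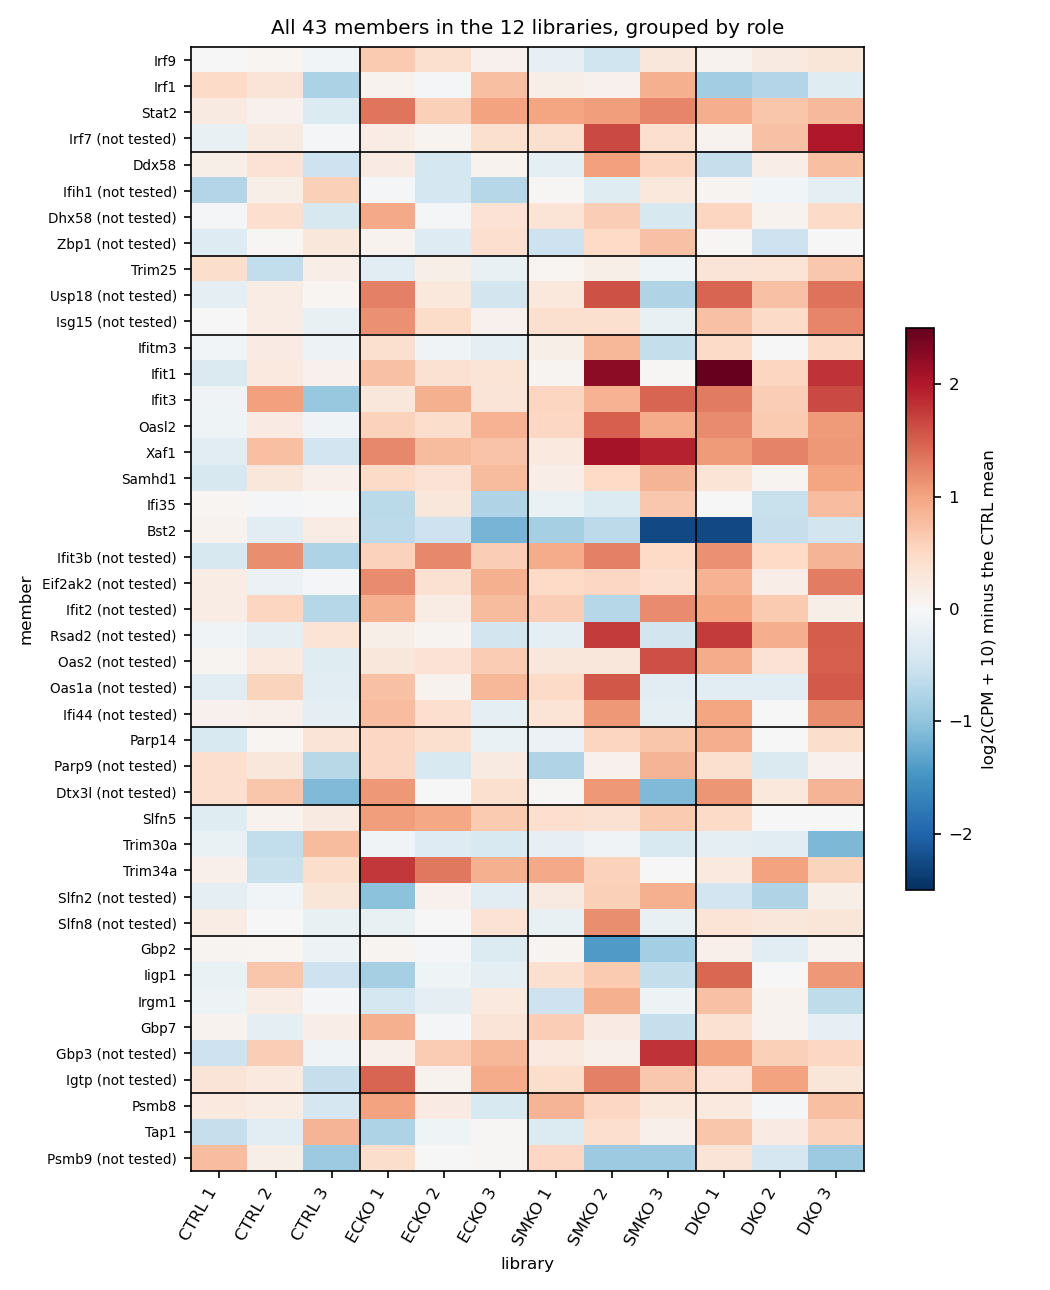
All 43 members (vertical axis, grouped by role) in the 12 libraries (horizontal axis), coloured by log2(CPM + 10) minus the mean of the 3 CTRL libraries, red higher and blue lower. Ifit1 and Rsad2 are reddest in SMKO 2 and in DKO libraries 1 and 3. Usp18 is also red in ECKO 1, Irf7 is near the CTRL level in DKO 1, and Slfn5 is reddest in ECKO 1 and 2.

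Macrophage markers also varied between libraries. The 10 markers, all detected, summed to 965 to 1285 CPM in CTRL, 1601, 4072 and 1008 in SMKO 1, 2 and 3, and 2211, 912 and 1700.1 in DKO 1, 2 and 3. SMKO 2 and DKO 1, the highest, were also the highest in their groups for Ifit1, Rsad2 and Usp18. The same held for Oasl2, Ifitm3, Ifit3b, Irgm1, Iigp1, Tap1, Dtx3l, Dhx58, Slfn8 and Trim30a, while the remaining members had another order. Irf7 was highest in SMKO 2 within SMKO, at 46.2 CPM, but was at 9.08 in DKO 1 against 19.9 and 62.2 in DKO 2 and 3. Ifit3 and Oas2 were highest in SMKO 3 and DKO 3 of their groups. DKO 2 was the lowest in its group for Ifit1, for macrophage markers and for the members' sum. Interstitial markers were highest in SMKO 2 as well, at 126438 CPM against 34285 and 41995 in the other SMKO libraries. Within ECKO, where macrophage markers were at 1623, 908 and 882 CPM in libraries 1, 2 and 3, Slfn5 and Trim34a had the same order, and Slfn5 was also highest in DKO 1. Within SMKO neither was highest in SMKO 2. The part of macrophages in the differences was not tested.

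The mutant groups were also compared directly. In DKO against ECKO, where 36 genes were called (0.572%) and no member, 10.8% of genes (6.07% higher and 4.73% lower) and 3 members had an unadjusted p under 0.05. Libraries were apart for 18.9% of genes (9.97% higher and 8.88% lower) and for 5 members, with Iigp1, Tap1 and Trim25 higher. Iigp1, an immunity-related GTPase, was higher in DKO at 86.3, 25.9 and 66.3 CPM against 10.2, 23.3 and 20.7 (1.43 ± 0.47, adjusted p = 0.203). Slfn5 was lower (-0.83 ± 0.29, 95% interval -1.42 to -0.23, adjusted p = 0.248), with no overlap, as was Irf1. Trim34a was at -0.75 ± 0.42 (95% interval -1.62 to 0.11) and overlapped. Some members had means above CTRL in both groups. Of these, Stat2 was at -0.17 ± 0.43, Oasl2 at 0.37 ± 0.35 and Xaf1 at 0.37 ± 0.48, smaller than or near their standard errors. So were others, such as Irf9 (-0.18 ± 0.29), Samhd1 (-0.11 ± 0.39) and Parp14 (0.22 ± 0.46). Ifit1 was at 1.49 ± 0.71 (95% interval -0.10 to 3.08). In SMKO against ECKO, with 0 genes called (0%), Slfn5 was at -0.49 ± 0.30 and Trim34a at -0.70 ± 0.44; only Irf9 (-0.68 ± 0.32) had an unadjusted p under 0.05, as did 3.8% of genes. In DKO against SMKO, with 0 genes called (0%), that member was Irf1, and 6.29% of genes reached it.

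The interaction asks whether the difference made by the endothelial deletion depended on the smooth muscle deletion. It was negative for Slfn5 (-1.40 ± 0.44, 95% interval -2.29 to -0.52) and for Trim34a (-2.00 ± 0.68, -3.38 to -0.62), each with an adjusted p of 0.625, and for Stat2 (-1.50 ± 0.65, adjusted p = 0.765). The interaction subtracts ECKO, so a negative value follows in part from the choice of Slfn5 and Trim34a. These were the 3 members with an unadjusted p under 0.05, against 6.23% of genes (3.05% higher and 3.18% lower), and 2 genes were called in all (0.0318%). Values near 0 were found for Ifit1 (0.11 ± 1.13) and Ifitm3 (0.04 ± 0.47), the first with a wide interval of -2.43 to 2.65. In the F test over the 4 groups, which called 19 genes (0.302%) and gave 8.99% an unadjusted p under 0.05, 6 members had one (Trim34a, Slfn5, Oasl2, Irf1, Stat2 and Iigp1) and the smallest adjusted p among the members were 0.212 for Trim34a and 0.270 for Slfn5. Without the filter the F test called 3 members, Ifit1, Trim34a and Rsad2 (1.31% of all genes), while 0 members were called in SMKO against ECKO (0.0965%), DKO against SMKO (0.193%) and the interaction (0.169%).

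By role, the 5 Schlafen and TRIM members summed to 192 ± 32.6 CPM in ECKO against 120 ± 44.3 for CTRL, 156 ± 7.34 for SMKO and 120 ± 14.4 for DKO, with CTRL 3 inside the ECKO range. That order came from Slfn5 and Trim34a: Slfn2, Slfn8 and Trim30a together were at 55.1 ± 30.0 in CTRL and 39.1 ± 3.24 in ECKO, with overlap. Isg15, Usp18 and Trim25, the ligase for Isg15 and activator of RIG-I, summed to 56.5 ± 16.6, 64.2 ± 19.3, 67.3 ± 28.3 and 106 ± 22.5, and every DKO library lay above every CTRL library. The 15 antiviral effectors, mostly Ifitm3, had a mean of 1685 ± 257 in CTRL and 2330 ± 497 in DKO, with overlap. Sensors of foreign nucleic acid (Ifih1, Ddx58, Dhx58 and Zbp1) stayed within 33.6 to 97.6 in all libraries. Antigen processing genes (Psmb8, Psmb9 and Tap1) ran from 57.4 to 104 and overlapped between all groups. Signal transducers and transcription factors (Stat2, Irf1, Irf7 and Irf9) summed to 81.7 to 127 in CTRL. Every ECKO library (140 to 184) and every SMKO library (131 to 193) lay above that range, while DKO (114 to 187) overlapped it. ADP-ribosylation partners (Parp14, Parp9 and Dtx3l) and GTPases overlapped CTRL in each mutant group.

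**Figure D4:**
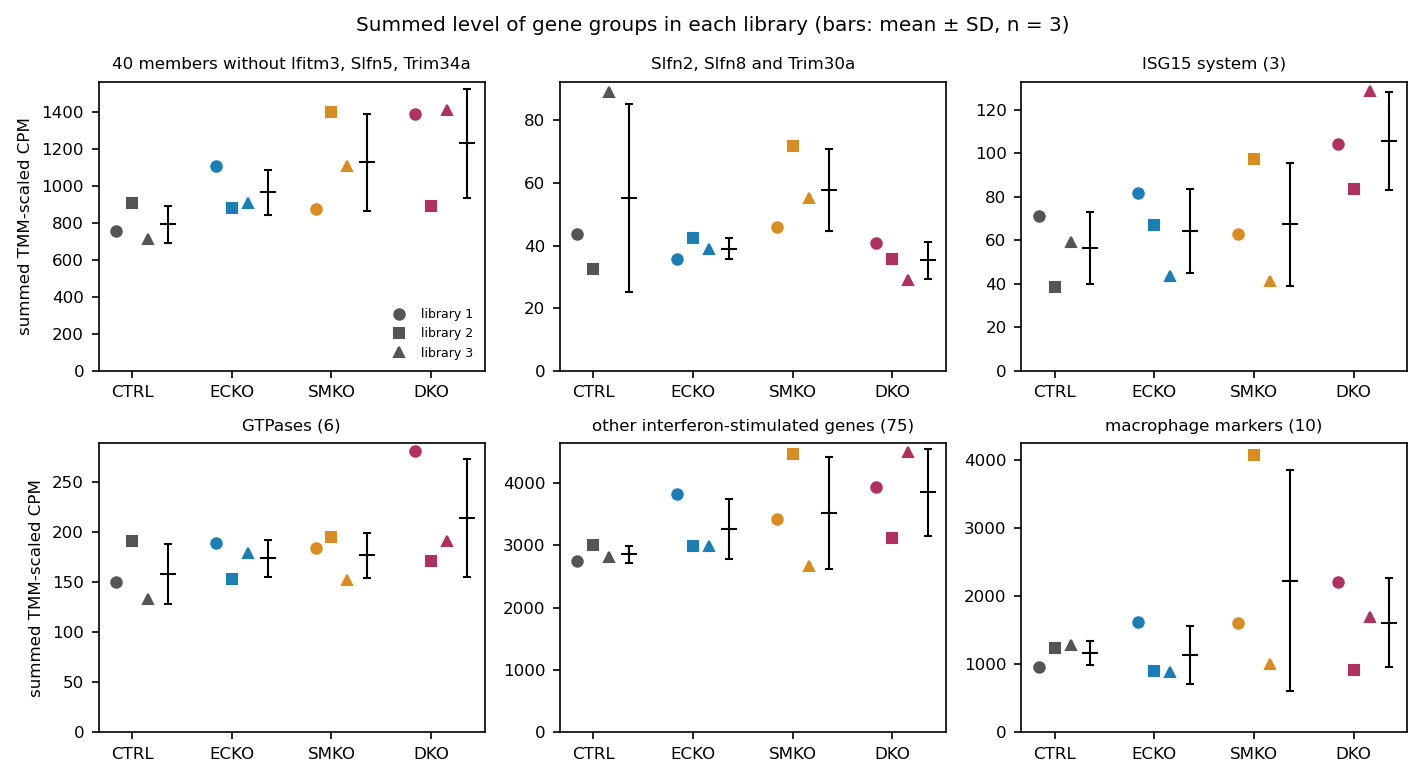
Summed level (vertical axis, TMM-scaled CPM) of 6 gene groups in each library of the 4 groups (horizontal axis); circles, squares and triangles are libraries 1, 2 and 3, and black bars are the mean ± SD of the 3. Without Ifitm3, Slfn5 and Trim34a the members' sum in ECKO overlaps CTRL, the ISG15 system is higher in all DKO than in all CTRL libraries, and SMKO library 2 is far above the others in macrophage markers.

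Genes of the wider pathway were taken from a list of 40 ligands, receptors, transducers and inhibitors. Of the interferon ligands, Ifna1, Ifna2, Ifna4, Ifna5, Ifnb1, Ifng, Ifnl2, Ifnl3 and Ifne had 0 counts in every library. Of the 18 tested, 0 were called in any of the 8 tests. In ECKO 11 were higher and 7 lower than in CTRL (49.5% of all genes were higher), with a median of 0.20. Summed over the 40 genes, every ECKO library (1439 to 1633 CPM) lay above every CTRL library (1298 to 1419). SMKO (1299 to 1518) and DKO (1378 to 1493) overlapped CTRL. The most abundant were Stat3, shared with many cytokines, at 265 ± 71.3 CPM in CTRL and 248 ± 19.1 in ECKO, and Ifngr1, the ligand-binding gamma receptor, at 194 ± 12.1 and 300.3 ± 26.2. Ifngr1 was the 1 gene of the 18 with an unadjusted p under 0.05 in that comparison (0.63 ± 0.24, adjusted p = 0.998), near the 4.34% of all genes.

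A second list held 75 interferon-stimulated genes outside the set, 28 of them tested and 0 called in any test. In ECKO 22 were higher and 6 lower than in CTRL (49.5% of all genes were higher), with a median of 0.12. At an unadjusted p under 0.05 was 1 of the 28 (4.34% of all genes). In DKO 20 were higher and 8 lower (51.5% of all genes were higher), with a median of 0.25. At that p were 4 of the 28, all higher, against 11.6% of all genes (6.46% higher and 5.16% lower). The most abundant were Ifitm2, a relative of Ifitm3, at 499.7 ± 51.4 CPM in CTRL and 446 ± 31.2 in DKO, and Ly6e, a surface protein that limits virus fusion, at 244 ± 19.6 and 528 ± 185. Ly6e had the smallest adjusted p of the list (1.09 ± 0.29, adjusted p = 0.0749 in DKO against CTRL).

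Among 22 Schlafen and TRIM paralogues, 7 were tested, and other than Slfn5 and Trim34a none had an unadjusted p under 0.05 in ECKO against CTRL. The most abundant outside the set were Trim56, at 49.5 ± 6.76 CPM in CTRL and 66.1 ± 12.4 in ECKO, and Trim26, at 40.6 ± 10.7 and 46.1 ± 9.01. On one side of Slfn5 the nearest genes are other Schlafens, and few of their reads were found: Slfn9 had 6 counts over all libraries, Slfn8 13, Slfn2 43, Slfn1 2, Slfn4 3 and Slfn3 0. Beside Trim34a, its near copy Trim34b had 1 count, and Trim12c was at 0.36 ± 0.48 in ECKO against CTRL (adjusted p = 0.998). By the older annotation GENCODE vM21, antisense transcripts overlap exons of both Slfn5 and Trim34a, and without strand their reads cannot be told apart.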

How the data were processed

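RNA of 12 libraries was read on a MiSeq after Nextera XT tagmentation, per the labels' protocols. The authors deposited whole-number counts per gene and a TPM value for each, also from the authors as the deposited header names it, beside fold changes and p-values of their own for DKO against the other groups; these deposited fold changes and p-values entered no test. The build named in the submitters' processing notes is GRCm39, and no aligner, counter or annotation is named there or in the labels. The sequences are from an older build and were joined by gene symbol.

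After TMM scaling, counts entered edgeR 4.0.16 (R 4.3.3; robust quasi-likelihood F test, 8 residual degrees of freedom) in 1 model of the 12 libraries. The filterByExpr filter (minimum count 10, scaled to library size, in any 3 libraries) kept 6296 of 16588 genes with a count, holding 93.1% of counts. Benjamini-Hochberg adjustment covered all genes tested, and the common biological coefficient of variation was 0.246. Standard errors were derived from the fold change and its F statistic. Intervals of pooled ratios (scipy 1.17.1) cover counting error only, since PCR copies are not independent molecules. Libraries of a group differed by more than sampling noise (chi-square per degree of freedom 1.85 to 9.64), so none were merged. The pipeline was tested on simulated data.

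Alternatives were DESeq2 1.42.0, limma-voom (limma 3.58.1), DESeq2 size factors, no filter, each library left out, a replicate block, depth or Y-linked counts as covariates, and pairs alone. Refits without the filter and without each library, and sums and counts without Slfn5 and Trim34a, were added after seeing the data. Members and lists were chosen with earlier results of these data known. Values per library are given for Slfn5, Trim34a, the most abundant members, called members and those with an unadjusted p under 0.05 in ECKO against CTRL; Rsad2, Usp18, Irf7, Isg15, Eif2ak2, Irf1, Iigp1, Bst2, Ly6e and neighbouring genes were singled out after their values were seen or for their place.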

Additional observations from a re-analysis of the deposited data

How the results depend on the processing

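There were 20 alternatives for the pairs and 19 for the interaction and the F test. None of the member differences followed changed sign under an alternative in which the gene was tested. These were the differences with an unadjusted p under 0.05 and those of Slfn5 and Trim34a in comparisons with ECKO. They were picked from these same data, mostly for their size, so a change of sign was unlikely from the start. Signs of the other members were not followed. The number of members called stayed at 0 in every comparison except that dropping the low-count filter gave 1 in ECKO against CTRL (Trim34a), 2 for DKO against CTRL, 2 for DKO set against ECKO (Ifit1 and Rsad2 in both), and 3 in the F test over the 4 groups. Leaving out 1 library gave 0 to 1 members in DKO against CTRL and 0 to 1 in the F test, the 1 being Ifit1 without SMKO 2, and 0 in the other tests. The cause was not tested. Over all genes, the calls ran from 4 to 158 (DKO against CTRL), 0 to 173 (DKO against ECKO), 0 to 15 (ECKO against CTRL), 0 to 8 (SMKO against CTRL), 0 to 16 (SMKO against ECKO), 0 to 128 (DKO against SMKO), 0 to 62 (interaction) and 3 to 218 (F test), so the 0 calls among the members are read with that range in view. With the replicate block, 0 members were called in any test and 50 genes in DKO against CTRL in place of 31; the labels do not say that a number marks a shared litter or day, and deviations of same-numbered libraries correlated at -0.143 to 0.177. Of the 12 libraries, 10 correlated best with their own number. Of the members that passed the low-count filter with all libraries, 11 to 13 other than Slfn5 and Trim34a were higher in ECKO under all alternatives. Over all members without the filter, 27 of the 41 other than Slfn5 and Trim34a were higher in ECKO than in CTRL. Slfn5 in ECKO against CTRL stayed between 0.87 and 1.20 on the log2 scale (adjusted p 0.269 to 1) and Trim34a between 1.48 and 2.33 (0.0381 to 1). With Y-linked counts as a covariate they were 1.07 and 1.99. Depth limits the 20 untested members most: a group of CTRL libraries with 0 counts allows up to 2.04 CPM.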

Other observations

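Beside Trim34a on the chromosome, Trim5 and Trim12a, TRIM relatives below the count filter, were chosen after their values were seen. For Trim12a, CTRL libraries had 4, 2 and 0 counts, ECKO libraries 2, 11 and 7, SMKO libraries 3, 1 and 0, and DKO libraries 0, 3 and 0, or 14.1 ± 3.36 CPM in ECKO and 2.97 ± 2.92 in CTRL. Trim5 had 4, 5 and 0 counts in CTRL and 4, 7 and 5 in ECKO, or 14.1 ± 5.60 CPM against 4.52 ± 4.03. These relatives have similar sequences, and whether reads were divided between them was not tested. Trim30a and Trim12c, farther along the same cluster, were at -0.21 ± 0.42 and 0.36 ± 0.48.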
